A study of Mus musculus with 4 samples.

Results

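The 8 genes Ch25h, Cyp7b1, Cyp46a1, Sqle, Insig1, Abca1, Abcg1 and Apoe, which serve cholesterol and oxysterol metabolism, were followed in whole mouse brain after injected lipopolysaccharide (LPS, an endotoxin that bacteria shed) or phosphate-buffered saline (PBS). They were chosen by symbol, and their probes by the RefSeq accessions of those symbols, which gave 11 probes of 56605. These 8 genes were among 23461 named genes, and all 8 were well above background on all 4 arrays. Total RNA was hybridised to 4 Agilent arrays in 1 colour, 1 array for each of Nav1.8CreROSA26DTA with LPS, wild-type with LPS, Nav1.8CreROSA26DTA with PBS and wild-type with PBS. The labels give an intraperitoneal LPS dose of 20 mg/kg and a harvest at 12 hours. In Nav1.8CreROSA26DTA mice, Cre from the locus of the sodium channel Nav1.8 switches on diphtheria toxin A from the ROSA26 locus, which removes sensory neurons of the Nav1.8 lineage. The cell bodies of those neurons lie in ganglia outside the brain. The labels give no strain, age or sex, no sampling time for PBS, and do not say whether an array held 1 brain or a pool.

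Cholesterol in the adult brain is made locally, because lipoproteins of the blood do not cross the blood-brain barrier, and it is handed between cells on particles that carry apolipoprotein E. Synthesis is governed by the transcription factor SREBP-2, which the protein Insig1 holds back in the endoplasmic reticulum when sterols are plentiful. Oxysterols, which are cholesterol with an added hydroxyl group, leave the brain more readily than cholesterol does, activate the nuclear receptors LXR alpha and LXR beta, and in immunity guide cells that carry the receptor Gpr183. Macrophages are known to switch on Ch25h when they meet LPS or interferon.

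Levels below are the log2 processed signal of a probe minus the log2 of its array's 75th percentile, and scaled signals are the same values on a linear scale, brought to the geometric mean of the 4 percentiles. A level of one gene cannot be set against that of another. An additive limma model over 17132 genes gave the LPS minus PBS difference as the mean of both genotypes, and the Nav1.8CreROSA26DTA minus wild-type difference as the mean of both injections. Values with ± carry limma's standard error. Its variance is drawn mostly from the other genes, with 7.99 prior degrees of freedom against 1 residual. A gene was called at a Benjamini-Hochberg adjusted p below 0.05 over all genes. The model sets 2 arrays against 2 and has 1 residual degree of freedom, in which spread between animals cannot be told apart from a genotype-specific response and is poorly estimated. Differences within 1 genotype or 1 injection compare single arrays and have no test. Spots well above background made up 66.5% to 69.5% of each array, and 0 spots were saturated. The software's own error was at most 10.9% of the signal for the representative probes of the 8 genes. All 6 of the neuron list, 6 of the astrocyte list and 6 of the oligodendrocyte list were well above background on every array. So were 6 of 6 endothelium markers, 6 of 6 fibroblast and meninges markers, and 16244 of the 23461 named genes. Passing this mark therefore says little about the tissue.

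The RefSeq promoter table held 7 windows for 5 of the 8 genes (build GRCm38.p6). The windows of Ch25h and Apoe are shown because these genes carry the LPS calls below, and that of Abca1 because it is an LXR target that was not called. Each runs from 250 bases before the annotated start site to 50 bases after it, on the minus strand, at chr19:34475099-34475398, chr7:19698572-19698871 (the second of 3 Apoe windows) and chr4:53159846-53160145. Capitals mark matches to TATAAA, the TATA box, on either strand.
Ch25h: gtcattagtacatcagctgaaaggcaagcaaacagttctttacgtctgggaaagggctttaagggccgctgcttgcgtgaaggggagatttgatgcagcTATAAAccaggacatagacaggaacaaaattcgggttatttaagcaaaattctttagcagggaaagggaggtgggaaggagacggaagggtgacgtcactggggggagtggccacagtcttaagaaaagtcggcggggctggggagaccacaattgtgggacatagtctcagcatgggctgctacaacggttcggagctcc
Apoe: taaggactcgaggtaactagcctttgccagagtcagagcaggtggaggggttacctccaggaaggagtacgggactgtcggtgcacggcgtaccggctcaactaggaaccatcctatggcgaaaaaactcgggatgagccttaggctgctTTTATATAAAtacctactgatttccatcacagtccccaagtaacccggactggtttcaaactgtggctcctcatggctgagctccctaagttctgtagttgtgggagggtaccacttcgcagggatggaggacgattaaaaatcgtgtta
Abca1: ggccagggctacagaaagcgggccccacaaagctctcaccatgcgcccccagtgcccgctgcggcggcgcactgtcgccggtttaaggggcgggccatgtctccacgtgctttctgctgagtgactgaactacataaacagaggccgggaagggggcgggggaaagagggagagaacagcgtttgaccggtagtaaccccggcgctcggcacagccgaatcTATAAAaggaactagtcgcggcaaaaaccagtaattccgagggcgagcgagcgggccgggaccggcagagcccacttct
Counted from the start site, the match began at -151 in Ch25h and at -29 in Abca1. In the Apoe window shown, a match on the reverse strand began at -100 and overlapped a match on the forward strand that began at -96. The other Apoe windows, and those of Cyp46a1 and Insig1, held no TATAAA on either strand. The windows shown are therefore not typical of all 7, and the other Apoe start sites had no such match. TATAAA was present in 13.6% of 32851 promoter windows of the same length. None of the 7 windows held TCACNCCAC, the sterol regulatory element bound by SREBP (1.24% of all windows), a pair of GAAA spaced by NN, the core of the interferon-stimulated response element (3.44%), TTCNNNGAA, the gamma-activated site (8.30%), TGANTCA, the AP-1 site (7.81%), or the NF-kB consensus (8.46%), each searched on both strands. CCAAT or its reverse complement was present in the windows of Cyp46a1 and Insig1 and in 37.4% of all windows. These counts describe letters in the windows and say nothing about binding.

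With LPS, 1 of the 8 genes rose, 1 fell and 6 were not called, against 5.62% of all genes tested that rose and 4.54% that fell. Ch25h, which encodes cholesterol 25-hydroxylase, was the one that rose, and Apoe, the main apolipoprotein of the brain, was the one that fell. The oxysterol hydroxylase gene Cyp7b1 was next, with an adjusted p of 0.0595 in the limma fit. Cyp46a1, Sqle, Insig1, Abca1 and Abcg1 differed by 0.20 or less in size on the log2 scale. The median of the 8 genes was 0.02, beside -0.03 over all genes tested.

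**Figure D1:**
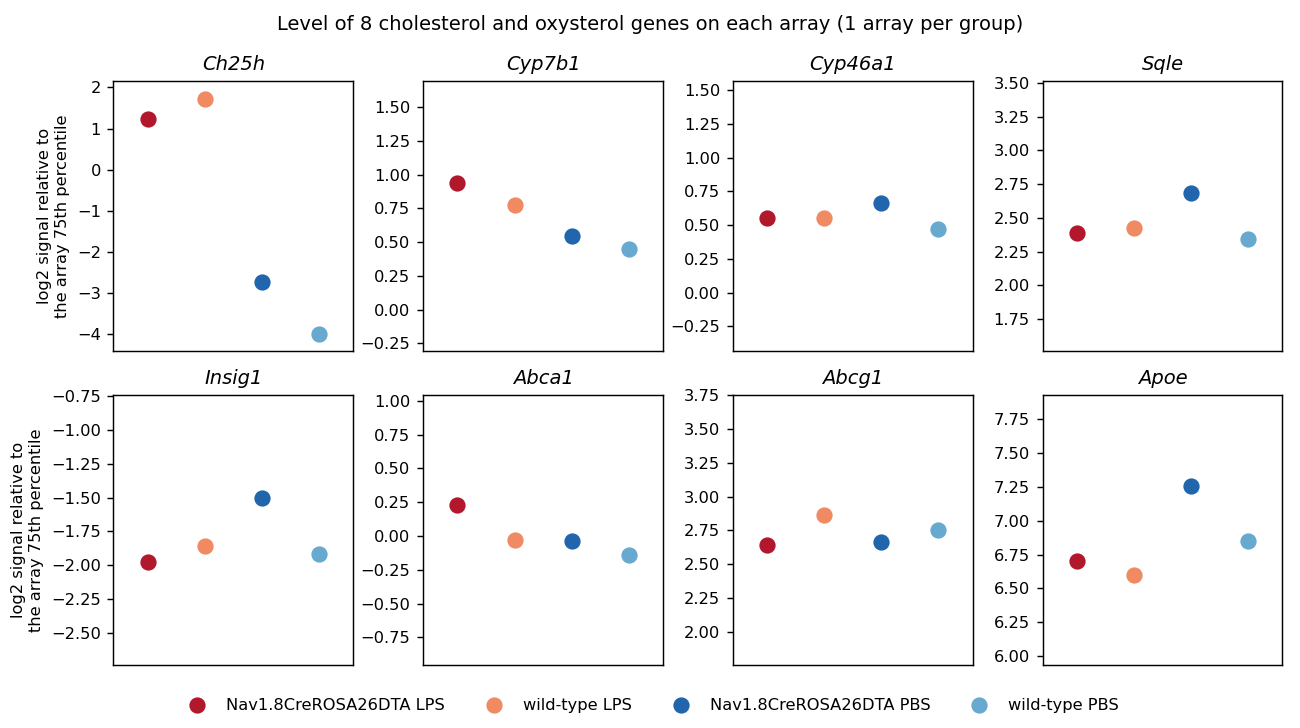
Level of each gene on each array, as log2 signal relative to the array's 75th percentile (vertical axes, at least 2 log2 units each and wider for Ch25h; 1 point is 1 array, with no error bar because each group held 1 array). The LPS arrays of Ch25h lie at 1.24 and 1.73 and its PBS arrays at -2.74 and -3.99, and no other gene spans as much.

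Ch25h makes the oxysterol 25-hydroxycholesterol and is not a cytochrome P450, unlike the other hydroxylases considered here. Its scaled signal was 1456 in Nav1.8CreROSA26DTA LPS brain and 2044 in wild-type LPS brain, against 92.6 in Nav1.8CreROSA26DTA PBS brain and 38.8 in wild-type PBS brain. Both LPS arrays lay far above both PBS arrays, and all 4 signals were well above background. The mean difference was 4.85 ± 0.32 on the log2 scale (limma adjusted p = 1.70e-05), a 28.8-fold difference, and its size ranked 21 of 17132 genes. Within Nav1.8CreROSA26DTA mice the LPS array was 15.7-fold above the PBS array, and within wild-type mice 52.7-fold. On the log2 scale these are 3.97 and 5.72, and both lie outside 4.85 ± 0.32. The standard error thus does not span the gap between the genotypes. The sizes also depend on how background is treated. With normexp background correction the log2 differences were 3.26 in Nav1.8CreROSA26DTA and 4.44 in wild-type, with a mean of 3.85. Ch25h was the one gene of the 8 at least 2-fold higher in either genotype, where 3.1% of measured genes were so in Nav1.8CreROSA26DTA and 3.41% in wild-type. None of the 8 was at least 2-fold lower in either genotype, beside 1.42% and 0.618% of measured genes.

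Among the 16243 other genes well above background on all arrays, those with the 4-array profile nearest to Ch25h were Irf7, Tgtp2 and Gbp4, at Euclidean distances of 0.79, 0.81 and 0.82 between log2 profiles centred on their own mean. Irf7 encodes an interferon regulatory factor, and Tgtp2 and Gbp4 encode interferon-inducible GTPases. Irf7 differed by 3.54 in Nav1.8CreROSA26DTA and by 4.73 in wild-type, Tgtp2 by 4.66 and 4.93, and Gbp4 by 4.15 and 4.62. These distances are far larger than those of the other 7 genes to their nearest genes, which were at most 0.04. In log2 units the match for Ch25h is therefore loose. The distance is not scaled to the range of a profile, however, and no other member spans as much as Ch25h. The gap in distances thus cannot show whether its match is also looser relative to its range. The LPS difference of Ch25h was among the largest of all genes tested, so few genes could lie near it.

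Cyp7b1 encodes the oxysterol 7-alpha-hydroxylase that turns the product of Ch25h into the ligand of Gpr183. Its scaled signal was 1180 in Nav1.8CreROSA26DTA LPS brain and 1057 in wild-type LPS brain, against 899 in Nav1.8CreROSA26DTA PBS brain and 843 in wild-type PBS brain. Both LPS arrays lay above both PBS arrays, as they did for 21.7% of all genes tested, and 3 of the 8 genes did so (Ch25h, Cyp7b1 and Abca1). The difference was 0.36 ± 0.10 (limma adjusted p = 0.0595), and 0.39 in Nav1.8CreROSA26DTA beside 0.33 in wild-type. A second Cyp7b1 probe differed by 0.44 ± 0.13 in a limma fit over all 37793 probes (adjusted p = 0.119), in the same direction. Cyp7b1 passed the threshold in 4 of 16 alternative settings, with adjusted p values of 0.0190 (normexp), 0.0381 (quantile normalization), 0.0418 (the deposited value table) and 0.0121 (no filter on dim genes).

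Cyp46a1, a cholesterol hydroxylase of neurons, makes the oxysterol by which most cholesterol leaves the brain. Its scaled signal was 907 in Nav1.8CreROSA26DTA LPS brain and 906 in wild-type LPS brain, against 976 in Nav1.8CreROSA26DTA PBS brain and 856 in wild-type PBS brain. The LPS arrays lay between the PBS arrays, and the difference of -0.01 ± 0.11 was the smallest of the 8 in size (limma adjusted p = 0.963). Its sign turned under 4 of the settings that kept all arrays. The 6 neuron marker genes had a median LPS difference of -0.13.

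Of 16 genes in a list of oxysterol and bile acid enzymes, 11 were tested, and 2 rose, 0 fell and 9 were not called. The list's median was 0.19. For this list and those below, the LPS shares over all genes tested were 5.62% higher and 4.54% lower, with a median of -0.03. Beside Ch25h, the gene that rose was Hsd3b7, whose enzyme acts on 7-alpha-hydroxylated oxysterols and removes the Gpr183 ligand. Hsd3b7 stood at 0.89 in Nav1.8CreROSA26DTA LPS brain and 0.75 in wild-type LPS brain, against -0.39 in Nav1.8CreROSA26DTA PBS brain and -0.44 in wild-type PBS brain, on the log2 level scale. The groups did not overlap, and the difference was 1.23 ± 0.11 (limma adjusted p = 0.000101). Thus 3 genes that make, convert or remove the Gpr183 ligand had differences of 4.85, 0.36 and 1.23, of which the first and the last were called. Cyp27a1, the mitochondrial sterol 27-hydroxylase gene, was well above background on 1 of 4 arrays and was not tested.

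No gene was called among 22 tested genes for oxysterol receptors and binding proteins by limma (median -0.00). The receptor gene Gpr183 differed by 0.30 ± 0.30 (limma adjusted p = 0.614). The LXR alpha gene Nr1h3 differed by 0.26 ± 0.15 (limma adjusted p = 0.355), and the LXR beta gene Nr1h2 by 0.05 ± 0.10 (0.815). The direction of the list's median turned with other scalings, to between 0.01 and 0.07 with quantile normalization, cyclic loess, the deposited value table or the percentile over probes well above background.

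Sqle encodes squalene epoxidase, an early rate-limiting step of the sterol branch. Its scaled signal was 3231 in Nav1.8CreROSA26DTA LPS brain and 3312 in wild-type LPS brain, against 3958 in Nav1.8CreROSA26DTA PBS brain and 3135 in wild-type PBS brain. The LPS arrays lay within the range of the PBS arrays, and the difference was -0.11 ± 0.11 (limma adjusted p = 0.618). Insig1, the sterol-responsive brake on SREBP processing, had 157 in Nav1.8CreROSA26DTA LPS brain and 171 in wild-type LPS brain, against 217 in Nav1.8CreROSA26DTA PBS brain and 163 in wild-type PBS brain. Its groups overlapped, and the difference was -0.20 ± 0.17 (limma adjusted p = 0.542). For both genes the Nav1.8CreROSA26DTA PBS array was the highest of the 4. Without that array the differences were 0.06 for Sqle and 0.00 for Insig1.

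Of 20 cholesterol synthesis genes 19 were tested, and 1 rose, 1 fell and 17 were not called, with a median of 0.07. Fdft1, which encodes squalene synthase, rose by 0.45 ± 0.09 (limma adjusted p = 0.0130). Hmgcs1, whose enzyme acts early in the pathway, differed by -0.16 ± 0.09 (limma adjusted p = 0.347). The call of Fdft1 ended without any 1 of the 4 arrays, where its value was 0.38 to 0.52. A fit with an array left out has no term for genotype, here and below. The genotype difference then mixes into the LPS value and its error, so a lost call need not mean dependence on 1 array.

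All 18 genes for SREBP control and sterol uptake were tested, and 0 rose, 2 fell and 16 were not called. The median was -0.06, and 0.01 with the deposited value table. Lrp8, a receptor for apolipoprotein E and reelin, fell by 0.57 ± 0.12 (limma adjusted p = 0.0155). Srebf1, which encodes SREBP-1 and is itself an LXR target, fell by 0.46 ± 0.10 (limma adjusted p = 0.0230). Srebf2, the gene of SREBP-2, differed by 0.24 ± 0.19 (limma adjusted p = 0.519) and Insig2 by 0.07 ± 0.09 (0.730). The calls of Lrp8 and Srebf1 also ended without any 1 array, at adjusted p = 0.0998 to 0.320 and 0.0580 to 0.333.

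**Figure D2:**
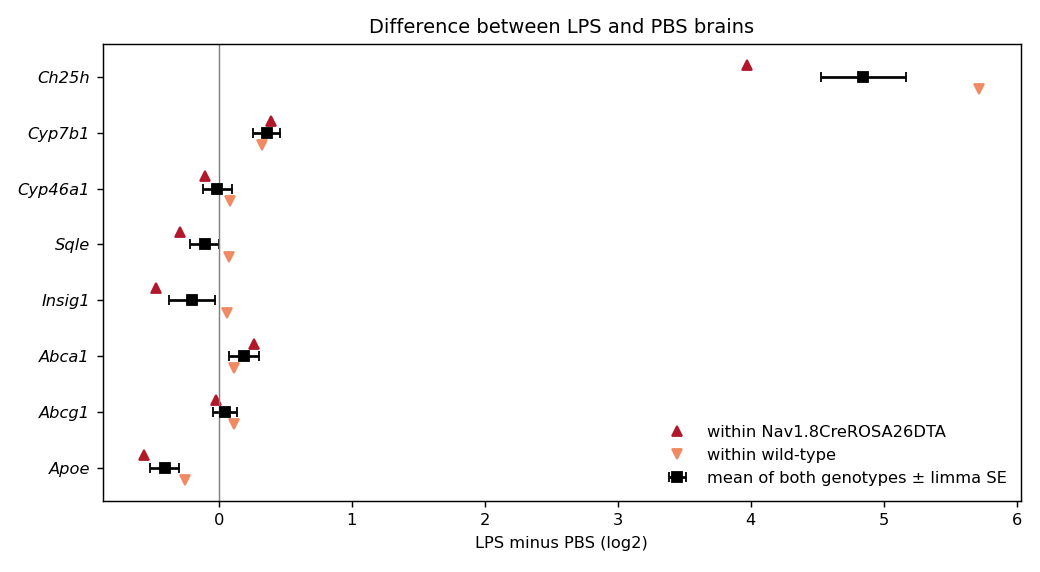
LPS minus PBS in log2 units for each of the 8 genes (horizontal axis). Squares with bars are the mean of both genotypes with limma's standard error, triangles pointing up the single-array difference within Nav1.8CreROSA26DTA and triangles pointing down that within wild-type. Ch25h stands at 4.85, and the other 7 lie between -0.41 and 0.36.

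Abca1 encodes the transporter that loads cholesterol onto lipid-poor apolipoproteins. Its scaled signal was 722 in Nav1.8CreROSA26DTA LPS brain and 605 in wild-type LPS brain, against 602 in Nav1.8CreROSA26DTA PBS brain and 559 in wild-type PBS brain. The wild-type LPS and Nav1.8CreROSA26DTA PBS arrays were nearly level, and the difference was 0.19 ± 0.11 (limma adjusted p = 0.366). A second, dim Abca1 probe, with software errors of 14.9% to 21.5% of the signal, differed by -0.29 ± 0.36 (limma adjusted p = 0.752 over all probes), so the 2 probes disagreed in sign. Abcg1, which passes cholesterol to larger lipoprotein particles, had 3847 in Nav1.8CreROSA26DTA LPS brain and 4485 in wild-type LPS brain, against 3909 in Nav1.8CreROSA26DTA PBS brain and 4152 in wild-type PBS brain. The LPS arrays were the lowest and the highest of the 4, and the difference was 0.04 ± 0.09 (limma adjusted p = 0.826).

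Apoe is made mainly by astrocytes and, when they are activated, by microglia. Its scaled signal was 64121 in Nav1.8CreROSA26DTA LPS brain and 59818 in wild-type LPS brain, against 94615 in Nav1.8CreROSA26DTA PBS brain and 71346 in wild-type PBS brain. Both LPS arrays lay below both PBS arrays, as they did for 29.3% of all genes tested and for none of the other 7. Apoe fell by 0.41 ± 0.11 (limma adjusted p = 0.0464), or by 0.56 in Nav1.8CreROSA26DTA and 0.25 in wild-type. The other Apoe probe fell by 0.42 ± 0.09 (limma adjusted p = 0.0294 over all probes), a fit in which the representative probe was not called (0.0566). The call was close to the threshold and ended in 9 of 16 settings. Its value was -0.28 with quantile normalization (adjusted p = 0.0578) or cyclic loess (0.119). The deposited value table gave -0.34 (0.0776). It was -0.20 without Nav1.8CreROSA26DTA PBS (adjusted p = 0.414), -0.36 without wild-type LPS (0.403) and -0.46 without Nav1.8CreROSA26DTA LPS (0.352), while without wild-type PBS it was -0.61 and remained called.

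Markers of several cell types also moved with LPS. Of 6 microglia markers 3 fell (median -0.53), and their summed level was 4.92 in Nav1.8CreROSA26DTA LPS and 4.91 in wild-type LPS brain, against 5.38 in Nav1.8CreROSA26DTA PBS and 5.10 in wild-type PBS brain, on the log2 scale. Of 6 astrocyte markers 2 fell and 1 rose (median -0.17), with summed levels of 5.87 and 5.95 in LPS brains and 6.08 and 5.90 in PBS brains, Nav1.8CreROSA26DTA before wild-type. Of 8 neutrophil and monocyte markers 6 were tested and 5 rose (median 2.55), and Cxcr2 was well above background on no array. Their summed level was 6.52 and 6.50 in LPS brains and 5.88 and 6.19 in PBS brains, in the same order of genotypes. Of 6 endothelium markers 3 fell and 1 rose (median -0.26), and of 6 oligodendrocyte markers 0 fell and 1 rose (median -0.29). Of 6 fibroblast and meninges markers 2 rose (median 0.32), and of 6 neuron markers 1 fell. No tested choroid plexus or red cell marker was called (medians 0.21 and 0.13). In whole tissue, fewer cells of a type and less RNA per cell cannot be told apart. The part of these markers in the Ch25h and Apoe values was not tested.

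Of 17 LXR target genes 16 were tested, and 0 rose, 4 fell and 12 were not called (median -0.11). Of all genes tested 5.62% rose and 4.54% fell (median -0.03). The genes that fell were Pltp, Lpl, Srebf1 and Apoe. Pltp, the gene of phospholipid transfer protein, stood at -1.97 in Nav1.8CreROSA26DTA LPS brain and -1.89 in wild-type LPS brain, against 0.13 in Nav1.8CreROSA26DTA PBS brain and -0.10 in wild-type PBS brain, on the log2 level scale. Its groups lay far apart, and it fell by 1.94 ± 0.14 (limma adjusted p = 2.52e-05). Lpl, which encodes lipoprotein lipase, fell by 0.57 ± 0.13 (limma adjusted p = 0.0209), a call that ended without any 1 array (adjusted p = 0.121 to 0.220). Abca1 and Abcg1, the members of the list best known as LXR targets, were not called. The median of the 13 tested LXR targets outside the 8 genes was -0.14, and the median over the list stayed below 0 under every scaling, at -0.17 to -0.04. The median over all genes tested was -0.09 to 0.04 under the same scalings, above that of the list in each.

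Of 21 genes for efflux, lipoproteins and esterification 20 were tested, and 3 rose, 3 fell and 14 were not called (median -0.01, which turned to 0.01 to 0.06 with 4 of the other scalings). Apod, an apolipoprotein of glia, rose by 1.44 ± 0.10 (limma adjusted p = 2.11e-05). Tspo, a mitochondrial sterol-binding protein gene used as a marker of glial activation, rose by 1.52 ± 0.13 (limma adjusted p = 7.64e-05). Soat2, a cholesterol acyltransferase gene, rose by 2.42 ± 0.32 (limma adjusted p = 0.00141), but it was well above background on 1 of 2 PBS arrays, and with normexp the difference was 0.55 (adjusted p = 0.0679). Soat1, the acyltransferase gene of most tissues, differed by -0.30 ± 0.13 (limma adjusted p = 0.191). The genes that fell were Pltp, Lpl and Apoe.

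**Figure D3:**
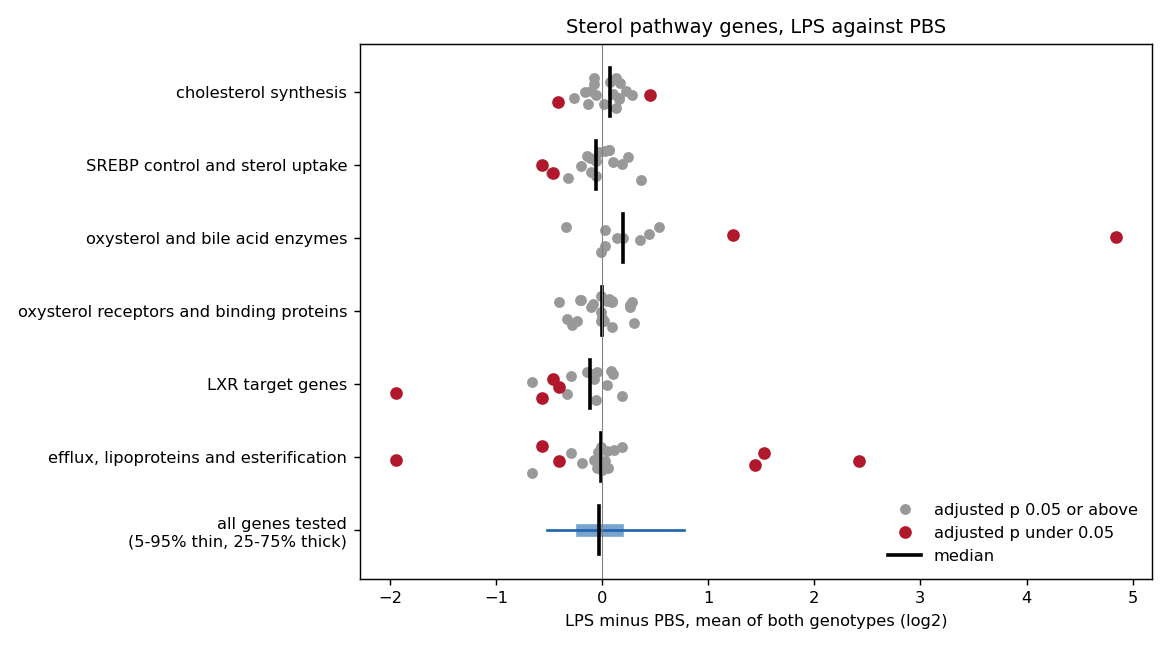
LPS minus PBS, as the mean of both genotypes in log2 units (horizontal axis), for every tested gene of 6 sterol gene lists. Points are genes, red where the adjusted p was below 0.05, black bars are list medians, and the lowest row gives the spread over 17132 genes. The list medians lie between -0.11 and 0.19, while single genes such as Ch25h, Hsd3b7 and Pltp stand far from them.

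Over the 95 distinct genes tested from the 6 lists, 6 rose and 6 fell, or 6.32% in each direction, beside 5.62% and 4.54% of all genes. Among these 12 genes, Ch25h, Hsd3b7, Apod, Tspo and Pltp kept their calls in all settings tried.

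Between genotypes, 0 of the 8 genes were called in either direction, against 0.304% of all genes higher and 0.105% lower in Nav1.8CreROSA26DTA, and 1 of the 8, Apoe, had an unadjusted p below 0.05, as did 10.2% of all genes tested. Apoe differed by 0.25 ± 0.11 (limma adjusted p = 0.469), Ch25h by 0.38 ± 0.32 (0.766) and Abca1 by 0.18 ± 0.11 (0.664). Abcg1 differed by -0.15 ± 0.09 (limma adjusted p = 0.645). The remaining 4 lay between 0.10 and 0.15, with limma adjusted p values of 0.721 to 0.852. Both Nav1.8CreROSA26DTA arrays lay above both wild-type arrays for 1 of the 8, Cyp46a1, as for 16.1% of genes, and below them for 1, Abcg1, as for 12.8%.

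The differences of single arrays varied with the injection. With PBS, 7 of the 8 genes were higher in Nav1.8CreROSA26DTA than in wild-type brain (median 0.26, beside 0.04 over all genes tested), and Abcg1 was lower. With LPS, 4 of the 8 were higher (median -0.02, beside 0.01). Ch25h was 2.39-fold higher in Nav1.8CreROSA26DTA PBS brain than in wild-type PBS brain, the one difference of at least 2-fold, where 1.21% of measured genes were that much higher and 0.415% that much lower. With normexp it was 1.65-fold higher, and none of the 8 was 2-fold higher. With LPS its level in Nav1.8CreROSA26DTA brain was 0.712 times that in wild-type brain, and none of the 8 was 2-fold apart, beside 0.829% of genes higher and 0.369% lower. With PBS, Insig1 was 1.33-fold, Apoe 1.33-fold and Sqle 1.26-fold higher in Nav1.8CreROSA26DTA.

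Marker levels of other cells differed between the same arrays. Red cell markers were higher in Nav1.8CreROSA26DTA brain by a median of 0.65 with LPS and 2.99 with PBS, fibroblast and meninges markers by 0.25 and 1.37, and oligodendrocyte markers by 0.96 and 0.50. The summed level of 5 red cell markers was 7.28 in Nav1.8CreROSA26DTA LPS brain and 6.60 in wild-type LPS brain on the log2 scale, and 8.19 in Nav1.8CreROSA26DTA PBS brain and 5.32 in wild-type PBS brain. Astrocyte markers were higher by 0.07 with LPS and 0.27 with PBS, and microglia markers differed by -0.07 and 0.29. Neuron markers differed by -0.06 with LPS and -0.05 with PBS. The part of these markers in the genotype differences of the 8 genes was not tested.

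**Figure D4:**
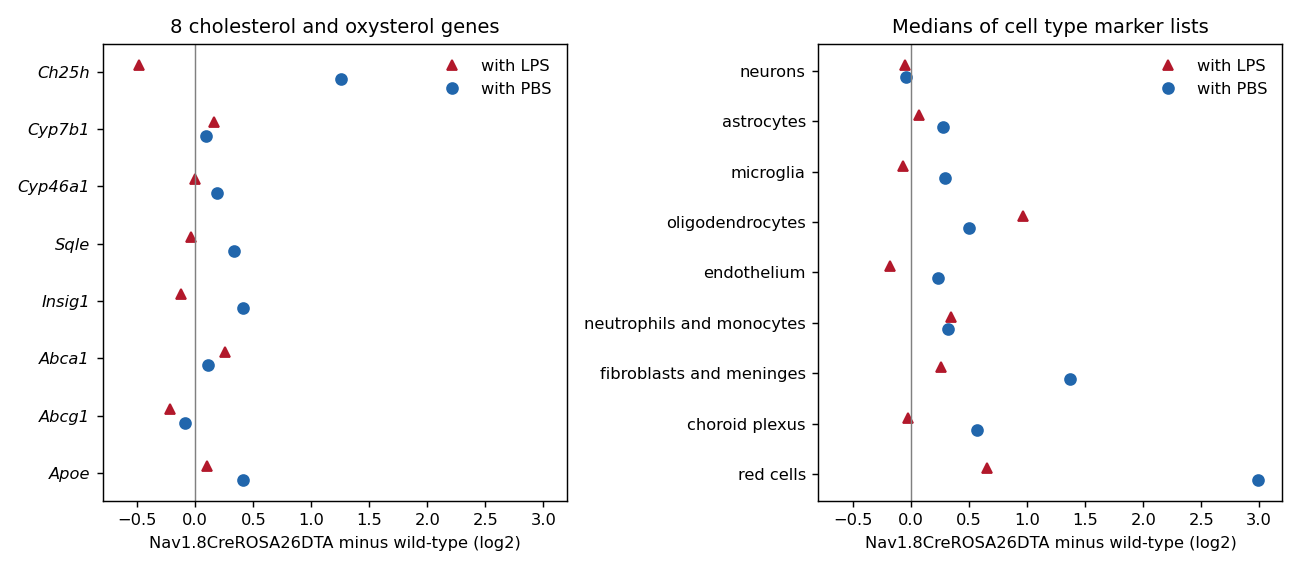
Nav1.8CreROSA26DTA minus wild-type in log2 units (horizontal axes) for the 8 genes (left) and for the medians of 9 cell type marker lists (right), with triangles for LPS and circles for PBS. Each value compares single arrays without replicates. With PBS, Ch25h stands at 1.26 and the red cell markers at 2.99, above every other value of their panel.

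No gene of the 6 lists was called between genotypes by limma, and 17 of 95 had an unadjusted p below 0.05, beside 10.2% of all genes tested. All 19 tested cholesterol synthesis genes had a positive difference, with a median of 0.14 beside 0.02 over all genes tested. The median was 0.04 with LPS and 0.21 with PBS. The number of positive genes was 17 with the deposited value table and 18 with normexp, and the median ran from 0.10 to 0.15 over the scalings. The oligodendrocyte markers, from the cells that make myelin and its cholesterol, had a median of 0.73 with 2 of 6 called, and their part was not tested. Hmgcs1 differed by 0.23 ± 0.09 (limma adjusted p = 0.447).

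The LPS response of Nav1.8CreROSA26DTA brain was lower than that of wild-type brain in 6 of the 8 genes, with a median difference of responses of -0.25, beside -0.03 over all genes tested. That of Ch25h was lower by 1.75 on the log2 scale, at 3.97 in Nav1.8CreROSA26DTA and 5.72 in wild-type. It was the one gene of the 8 more than 2-fold apart, where 1.53% of measured genes were that much lower and 0.967% that much higher. Nav1.8CreROSA26DTA minus wild-type was -0.49 with LPS and 1.26 with PBS for this gene. With normexp the response difference of Ch25h was -1.18, and over the other scalings it was -1.78 to -1.71. Insig1 followed with -0.53, Sqle with -0.37 and Apoe with -0.31. Cyp7b1 and Abca1 had the larger response in Nav1.8CreROSA26DTA, by 0.07 and 0.15. No test of these differences was possible with 1 array a group.

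**Figure D5:**
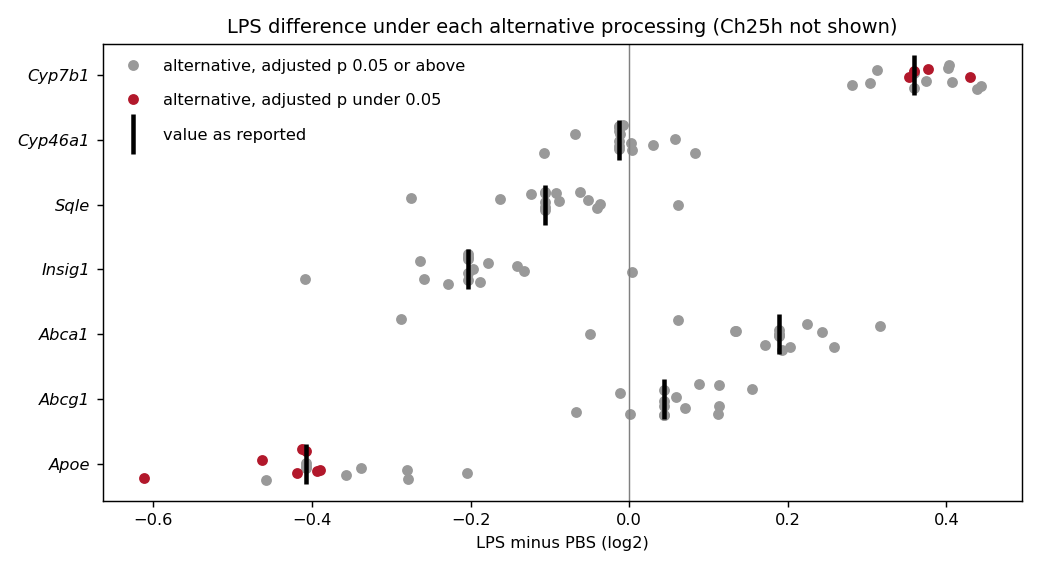
LPS minus PBS in log2 units (horizontal axis) of 7 of the 8 genes under each alternative setting, with red points where the adjusted p was below 0.05 and a black bar at the value as reported. Apoe was below 0 in every setting and Cyp7b1 above 0, with calls in some of them, while Cyp46a1, Sqle, Insig1, Abca1 and Abcg1 each had values on both sides of 0.

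By the same distance between centred 4-array profiles, the genes nearest to Cyp7b1 were Scfd1, Phactr4 and Haus4 (0.02 to 0.03), and those nearest to Apoe were H2bc6, Muc20 and Hpcal4 (0.02 to 0.04). The nearest to Insig1 was the clock output gene Dbp (0.02), to Sqle 1700084M14Rik (0.02), to Abca1 Nup133 (0.01), to Abcg1 Map3k4 (0.02) and to Cyp46a1 Kctd13 (0.01). With 4 arrays and 16243 genes, close profiles of small range are common.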

How the data were processed

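Per the labels' protocols, TRIzol RNA was labelled with a low-input Agilent kit. Scans were read with Feature Extraction, version 11.0.1.1 per the submitters' processing notes and 12.0.3.1 per the file headers. The deposited intensity used here, the processed signal, had its background subtracted and was detrended, per the file headers. It is not scaled between arrays. The marks for spots well above background or outlying are the same software's 0 or 1 scores, as deposited. The deposited value table was nearly proportional to the processed signal, with 1 factor per array (1.57 to 2.09), and its column medians were 91.4 to 103. The sources used here do not say how the factors were chosen.

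Each array's 75th percentile (514 to 726) was subtracted on the log2 scale, outlier spots (81 to 96 per array) were left out, and spots of a probe were averaged. Of 56605 probes, 33767 (59.65%) were named through RefSeq accessions of GRCm38.p6. A gene took its probe well above background on most arrays, then the brightest. Genes well above background on at least 2 arrays entered limma 3.58.1 (R 4.3.3; lmFit and eBayes with an intensity trend, terms genotype and agent, two-sided, Benjamini-Hochberg), with 7.99 prior degrees of freedom. No mean-signal column was used: normexp took median signals. Tested on simulated data for the LPS effect over 17132 genes, the fit recovered 96% and 82% of 50 genes each raised or lowered 2-fold. The simulated noise had the spread that the fit itself had estimated, with no genotype effect or genotype-specific response. The recovery therefore cannot show whether that spread was estimated well. Changes smaller than 2-fold were not simulated.

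The members, lists and tests were chosen with earlier results of these data known. Named genes were the 8 members, partner genes, up to 4 called genes per list and direction, and the 3 nearest profiles of each member; some genes under this rule are not reported here. Depth does not apply to arrays, whose number limits the precision. Alternatives covered background, scaling, filter, trend, probe choice and leaving out each array, and a fit over all probes was chosen after seeing the data.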

Additional observations from a re-analysis of the deposited data

Results flagged for a closer look

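In these genes the LPS difference had opposite signs in the 2 genotypes, each measured on 1 LPS and 1 PBS array, and the difference was not tested. Among the 8 genes, the response of Nav1.8CreROSA26DTA minus that of wild-type was -0.19 for Cyp46a1 (-0.11 and 0.08), -0.37 for Sqle (-0.29 and 0.08), -0.53 for Insig1 (-0.47 and 0.06) and -0.13 for Abcg1 (-0.02 and 0.11), with the value in Nav1.8CreROSA26DTA first in each pair. Among partner genes it was 0.25 for Nr1h2 (0.17 and -0.07) and 0.78 for Srebf2 (0.63 and -0.15). Genes with an LPS difference near 0 change sign easily, and none of these 6 genes was called for the LPS effect.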

How the results depend on the processing

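Ch25h kept its call in all 15 alternatives, at 3.85 (normexp) to 5.48 (without Nav1.8CreROSA26DTA PBS). Over the alternatives that kept all 4 arrays its limma adjusted p ran from 1.12e-221 to 0.0415. The size of that p thus depends on the setting. The 8 genes held 2 called higher with normexp, quantile normalization, the deposited value table or no filter, and 1 in the other settings. They held 0 called lower with quantile normalization, cyclic loess, the deposited value table, the filter on all 4 arrays or no intensity trend, and 0 to 1 with an array left out. Without an array, LPS calls over all genes ran from 370 to 514 higher and from 70 to 187 lower, and genotype calls were 0 in both directions. Genes called higher with LPS were 1583 without the filter and 382 without the trend, against 963. Genes called lower were 463 (cyclic loess), 433 (deposited table), 501 (mean over probes), 1567 (no filter), 48 (no trend) and 1292 (array median), against 777. Genotype calls, 52 higher and 18 lower, became 25 and 8 (percentile over detected probes), 21 and 8 (cyclic loess), 20 and 8 (deposited table), 11 and 1 (mean over probes), 654 and 304 (no filter), 258 and 125 (normexp), 179 and 62 (quantile), 166 and 31 (array median) and 0 and 0 (no trend). With normexp, 0 of the 8 genes were 2-fold higher in Nav1.8CreROSA26DTA PBS than in wild-type PBS brain, against 1.

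Among lists, LXR targets called lower were 2 with cyclic loess or the deposited table, 7 without the filter, 1 without the trend and 1 to 3 with an array left out. SREBP and uptake genes called lower were 1 with cyclic loess, the deposited table or the mean over probes, and 0 without the trend or any 1 array. Synthesis genes called higher were 0 without the trend or any 1 array, and those called lower 0 also with cyclic loess and the deposited table. Efflux genes called lower were 1 without the trend and 1 to 3 with an array left out. Oxysterol enzymes called higher were 4 without the filter or with quantile normalization, and called lower 1 without the filter or with the array median. Receptor and binding protein genes called lower were 2 without the filter or with normexp and 1 with the array median.

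Uncalled LPS values turned sign as follows. Abca1 was -0.0492 with the mean over probes and -0.287 at its other probe. Cyp46a1 was 0.00216 with the percentile over detected probes, 0.00298 with quantile normalization, 0.0296 with cyclic loess and 0.0572 with the deposited table. Abcg1 was -0.0115 and Nr1h2 -0.00596 with the array median, Nr1h2 -0.0499 and Insig2 -0.0395 with the mean over probes, and Gpr183 -0.0576 with normexp. With an array left out, LPS values ran from -0.107 to 0.0826 for Cyp46a1, -0.275 to 0.0613 for Sqle, -0.409 to 0.00386 for Insig1, -0.0667 to 0.155 for Abcg1, -0.154 to 0.749 for Gpr183, -0.0348 to 0.134 for Nr1h2, -0.0391 to 0.519 for Srebf2 and -0.00205 to 0.136 for Insig2. Genotype values ran from -2.48 to 3.24 for Ch25h, -0.0700 to 0.322 for Cyp7b1, -0.0892 to 0.381 for Insig1 and -0.0269 to 0.534 for Apoe, since 3 arrays leave no term for LPS and its response mixes in. The LPS values with an array left out likewise had no term for genotype, whose difference mixes in. The cause of the other changes was not tested. No paired analysis was possible because each group held 1 array. With 1 array a group, position on the slide, animal and group cannot be told apart.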
